A study of Mus musculus with 2 samples.

Results

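The 7 genes described here encode subunits of the GABA-A receptor: the alpha subunits Gabra2, Gabra3, Gabra4 and Gabra5, the beta subunits Gabrb1 and Gabrb2, and the gamma subunit Gabrg3. They were taken as the rows with these symbols among 24015 gene symbols listed for J-RGCs, retinal ganglion cells marked by the adhesion molecule gene Jam2. The study held 1 group of 2 libraries, A and B, each from J-RGCs of mouse retina at postnatal day 6, pooled from 5 to 6 animals of its own litter. The sorted cells of both litters were labelled by a GFP transgene described as specific for J-RGCs, after enrichment on magnetic beads. The sources used here do not give the transgene's promoter or the strain. No other cell type, age or treatment was part of the design, so the comparisons are between subunit genes and between the libraries.

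GABA-A receptors are chloride channels built as pentamers of homologous subunits around a central pore, most often of alpha, beta and gamma subunits. The transmitter binds between beta and alpha subunits, and benzodiazepines bind between alpha and gamma subunits. In the retina, ganglion cells receive GABA from amacrine cells, and which subunits a neuron makes sets the kinetics, the site on the membrane and the drug sensitivity of its receptors. The family has further alpha, beta and gamma genes, so the order given below holds among these 7 genes and says nothing of where they stand in the whole family.

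The depth was 7916204 gene counts in A and 13744313 in B. All 8 ganglion cell markers checked were detected, meaning a level of at least 1 count per 1000000 gene counts (CPM) in both libraries, and Jam2 stood at 2344 CPM in A and 1203 CPM in B. Those 8 genes summed to 8308 CPM in A and 11338 in B, against 126 and 108 CPM for 9 amacrine cell markers, of which 4 were detected, and 266 and 328 CPM for 6 microglia markers, of which 4 were detected. The amacrine markers Slc32a1, the vesicular GABA transporter gene, and Chat lay below 1 CPM in both libraries. The 4 detected included Gad2 at 58.4 CPM in A and 56.8 CPM in B and Tfap2b at 42.2 and 30.9 CPM. The others were Tfap2a at 23.24 CPM in A and 10.04 CPM in B and Gad1 at 1.01 and 4.80 CPM. Amacrine cells also carry GABA receptors, and the part of such cells in the levels below was not tested. In bulk libraries like these, fewer cells of a type and less RNA per cell cannot be told apart.

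All 7 subunit genes were detected, against 46.8% of all listed genes, and 3 of them, Gabrb2, Gabra2 and Gabrg3, exceeded 100 CPM in both libraries, a level reached by 6.53% of all genes. CPM grows with transcript length, so levels of different genes were compared in TPM, the relative abundance of transcripts: counts divided by the summed exon length of the gene and scaled to a sum of 1000000 per library. On that scale the genes are described here as a higher set, Gabrb2, Gabra2, Gabra5 and Gabrg3, and a lower set, Gabra3, Gabra4 and Gabrb1. The cut is for description only. The step between the sets, Gabrg3 over Gabra3, was 2.55-fold. Within the lower set Gabra3 over Gabra4 was 3.33-fold and Gabra4 over Gabrb1 was 2.64-fold. The order of the 7 genes by TPM was the same in A and in B. Together they held 696 TPM in A and 599 TPM in B.

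**Figure D1:**
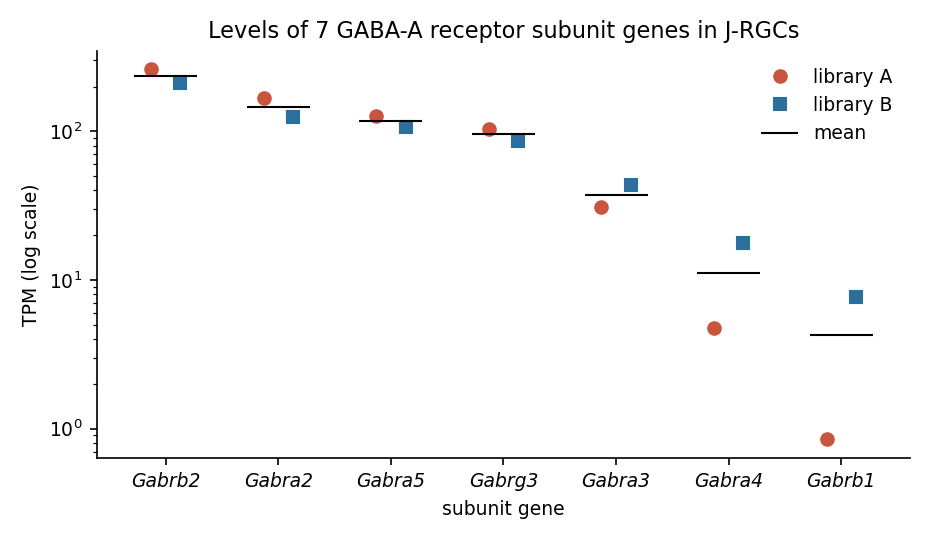
TPM of each subunit gene (vertical axis, log scale) in library A (circles) and library B (squares), with the mean of both as a line. The 4 genes at the left lie between 86.2 and 262 TPM in both libraries, and the 2 genes at the right are lower in A than in B.

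The beta subunits differed most. Gabrb2, a beta subunit of many adult brain receptors, had 2411 counts in A and 3382 in B, or 305 and 246 CPM. Per length this was 262 TPM in A and 212 TPM in B, a mean of 237 ± 35.1 TPM (SD, n = 2), the highest of the 7 genes. Gabrb1 had 17 counts in A and 266 in B, or 0.848 and 7.66 TPM, the lowest of the 7 in each library. Gabrb2 exceeded Gabrb1 55.6-fold, with a 95% interval of 16.2 to 191 from counting error and the spread between the libraries over all genes. The ratio was 309 in A alone and 27.7 in B alone, and for both libraries it was 23.5 (6.86 to 80.7) with coding lengths and 87.7 (25.6 to 301) with the longest transcript. Gabrb2 made up 99.7% of the TPM of these 2 beta genes in A and 96.5% in B.

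A codon in the pore-lining helix separates these beta subunits. Asparagine at this place, found in the beta2 subunit, is known to give receptors high sensitivity to the anaesthetic etomidate and to loreclezole, whereas the serine of beta1 gives low sensitivity. The coding stretches, from GENCODE transcripts on GRCm38 and read 5′ to 3′, have that codon in capitals, an asparagine codon in Gabrb2 and a serine codon in Gabrb1.
Gabrb2: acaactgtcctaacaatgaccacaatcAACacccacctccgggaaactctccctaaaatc
Gabrb1: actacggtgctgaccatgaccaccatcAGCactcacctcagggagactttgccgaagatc
In both libraries the TPM of these 2 genes thus came almost entirely from the gene with the asparagine codon.

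Among the 4 alpha genes, Gabra2 and Gabra5 led. Gabra2, an alpha subunit abundant in the immature forebrain, had 1851 counts in A and 2382 in B, or 167 and 124 TPM, a mean of 146 ± 30.3 TPM (SD, n = 2). Gabra5, which shares 148 exon bases with the opposite-strand gene Gm9962 (14 counts in A and 5 in B) and is known from the hippocampus for receptors outside synapses, had 543 counts in A and 804 in B, or 126 and 108 TPM, a mean of 117 ± 12.9 TPM. Gabra2 over Gabra5 was 1.25 with a 95% interval of 0.517 to 3.01, so these leading genes were not separated. Gabra2 held 50.8% of the TPM of these 4 alpha genes in A and 42.4% in B, and Gabra5 held 38.3% and 36.7%. Gabra3 and Gabra4 made up the rest, a larger share in B than in A.

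Gabra3, an alpha subunit made early in development in many brain areas, had 177 counts in A and 429 in B, or 31.1 and 43.6 TPM. Gabra2 exceeded it 3.90-fold (95% interval 1.54 to 9.89) and Gabra5 exceeded it 3.13-fold (1.29 to 7.61). In library B alone both intervals held 1, at 2.85-fold (0.779 to 10.4) and 2.47-fold (0.713 to 8.57). Gabra4, whose subunit is found with delta subunits in receptors outside synapses in the forebrain, had 42 counts in A and 270 in B, or 4.76 and 17.7 TPM. Gabra5 exceeded it 10.4-fold (3.53 to 30.7), and the interval of Gabra2 over Gabra4 ran from 4.25 to 39.6. Gabra5 over Gabra4 was 26.4 in A and 6.09 in B, and Gabra2 over Gabra4 was 35.1 and 7.02. Gabra4 thus made up 1.45% of the TPM of these alpha genes in A and 6.03% in B.

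The alpha subunits also differ in 1 codon of the benzodiazepine site. Histidine there allows binding of classical benzodiazepines such as diazepam, and the arginine of the alpha4 subunit prevents it. The coding stretches are again from GENCODE transcripts on GRCm38, 5′ to 3′, with the codon in capitals; it is a histidine codon in Gabra2, Gabra5 and Gabra3 and an arginine codon in Gabra4.
Gabra2: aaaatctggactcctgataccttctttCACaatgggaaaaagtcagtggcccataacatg
Gabra5: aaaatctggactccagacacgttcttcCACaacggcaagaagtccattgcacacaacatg
Gabra3: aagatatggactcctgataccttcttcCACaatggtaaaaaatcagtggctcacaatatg
Gabra4: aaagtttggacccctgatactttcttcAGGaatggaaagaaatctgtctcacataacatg
The gene with the arginine codon was the lowest of these 4 alpha genes in A and in B.

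Gabrg3, a gamma subunit of more restricted distribution in the brain, had 1807 counts in A and 2581 in B, or 228 and 188 CPM. Its summed exons are the second longest of the set at 11934 bases, so per length it stood lower, at 104 TPM in A and 86.2 TPM in B, a mean of 95.4 ± 12.9 TPM (SD, n = 2). It was not separated from Gabra5 (Gabra5 over Gabrg3 1.23, 95% interval 0.509 to 2.95) or from Gabrb2 (Gabrb2 over Gabrg3 2.48, 0.977 to 6.31), though with the longest transcript Gabrb2 over Gabrg3 was separated at 3.24 (1.27 to 8.24). It exceeded Gabra3 2.55-fold, with an interval of 1.01 to 6.46 that held 1 in A alone (3.36-fold, 0.911 to 12.4) and in B alone (1.98-fold, 0.540 to 7.25).

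Over all 21 pairs of the 7 genes, 14 were separated, meaning that the 95% interval excluded 1. Of the 6 pairs of neighbours in the order, 2 were separated: Gabrg3 over Gabra3, given above, and Gabra3 over Gabra4, at 3.33-fold (1.08 to 10.2). In library B alone neither of these held, and Gabra3 over Gabra4 was 2.46 (0.583 to 10.4). With coding lengths its interval held 1 too, at 2.32 (0.754 to 7.14). Neighbours within the higher set were not separated. Gabra4 over Gabrb1 was 2.64, with an interval of 0.668 to 10.4, and was separated in library A alone at 5.62 (1.05 to 30.1).

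**Figure D2:**
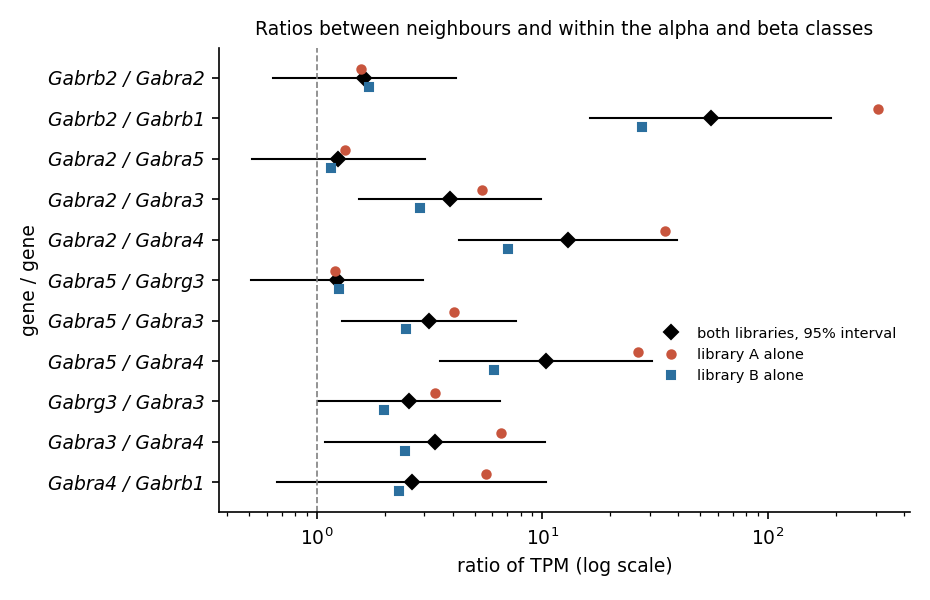
Ratio of TPM between 2 genes (horizontal axis, log scale) for neighbours in the order and for pairs within the alpha or beta class; diamonds with bars are both libraries with the 95% interval, circles library A alone and squares library B alone. The interval of Gabrb2 over Gabrb1 starts at 16.2, while that of Gabra2 over Gabra5 spans 1.

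The length by which counts are divided moved the level of most of the genes. With the coding length in place of all exons, Gabrg3 stood at 212 TPM and Gabra5 at 65.4 TPM (means of both libraries), and the order of these neighbours turned round, with Gabra5 over Gabrg3 at 0.308 (95% interval 0.128 to 0.741). Gabra2, at 215 TPM, then exceeded Gabra5 3.29-fold (1.36 to 7.92), and Gabra3 stood at 24.0 TPM. Gabrb1, with 13838 bases of summed exons and 1422 coding bases, stood at 10.9 TPM with the coding length and at 4.26 TPM with all exons, and Gabrb2 kept the first place at 256 TPM. The sources used here do not say which exons the authors counted over. Gabra3, Gabra4 and Gabrb1 stayed the 3 lowest genes under all 3 choices of length.

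**Figure D3:**
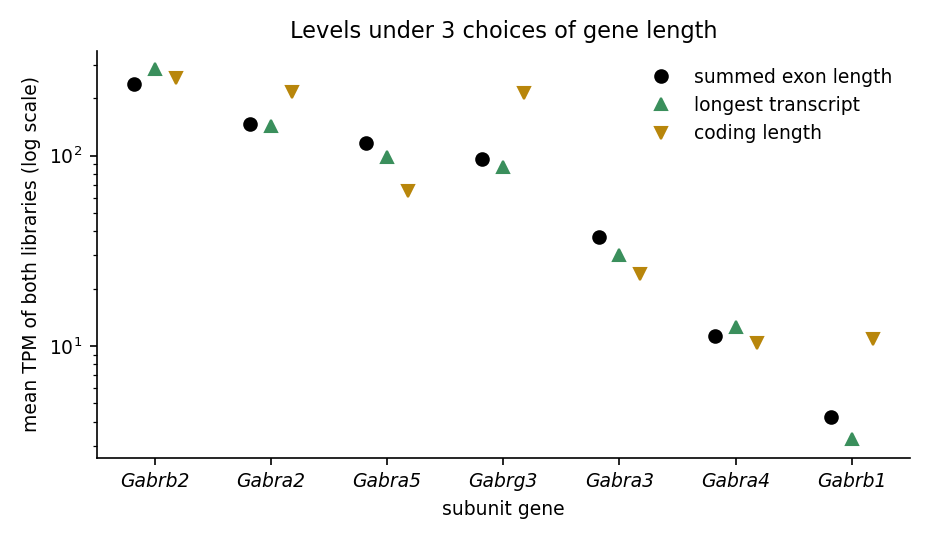
Mean TPM of both libraries (vertical axis, log scale) for each subunit gene, computed with the summed exon length, the longest transcript or the coding length. Gabrg3 lies at 95.4, 87.6 and 212 TPM, and the 3 genes at the right stay below the other 4 under each choice.

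The 7 genes lie on 4 chromosomes, where GABA-A subunit genes sit in clusters. Gabra2, Gabra4 and Gabrb1 are on mouse chromosome 5, at mean levels of 146, 11.2 and 4.26 TPM. Gabra5 and Gabrg3 on chromosome 7 stood at 117 and 95.4 TPM. Gabrb2 is on chromosome 11 and Gabra3 on chromosome X.

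Between the litters, 5 of the 7 genes lay within 2-fold and 2 differed by more than 2-fold. By gene totals, the adjusted p of the exact binomial test was below 0.05 for all 7. For each gene a two-sided exact binomial test was run on its counts in A and B, with Benjamini-Hochberg adjustment over 14107 genes, and called at an adjusted p below 0.05 and at least 2-fold; the test compares these 2 libraries and not conditions. Of all genes tested, 42.6% were called in either direction, 32.3% as higher in B, so the 2 of 7 called are not above the background. That background was 37.7% with TMM factors and 37.1% with DESeq2 size factors, both of which correct for a few genes taking a large share of counts. Gabrb1 stood at 2.15 CPM in A and 19.4 CPM in B, with a log2 ratio of A over B of -2.91 (adjusted p = 1.53e-32). Gabra4 stood at 5.31 CPM in A and 19.6 CPM in B, with a log2 ratio of -1.79 (adjusted p = 5.72e-19). Both were lower in A. Among genes with a mean of 5 to 50 CPM, a range chosen after these 2 genes were seen to lie in it, 30.6% were called higher in B and 10.3% higher in A. Marker lists of other cell types differed between the libraries in both directions. The 4 horizontal cell genes summed to 14.5 CPM in A and 30.5 CPM in B, with 3 detected and Lhx1 at 0 in both. The 6 Müller glia and astrocyte genes summed to 98.3 and 135 CPM, with 2 detected, Glul at 87.0 CPM in A and 129 CPM in B and Slc1a3 at 11.1 and 3.06 CPM, while Gfap, Rlbp1 and Pax2 were at 0 in A. Higher in A were the sums of 6 bipolar cell genes (250 CPM in A and 123 CPM in B, 3 detected), of 7 rod and cone genes (37.5 and 26.8 CPM, 4 detected) and of 4 endothelial and mural genes (395 and 104 CPM, 2 detected). Their part in the difference was not tested.

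The remaining 5 genes did not reach 2-fold. Gabrb2 stood at 305 CPM in A and 246 CPM in B, a log2 ratio of 0.31, and Gabra2 at 234 and 173 CPM, a log2 ratio of 0.43. The log2 ratio was 0.28 for Gabrg3 and 0.23 for Gabra5 (68.6 and 58.5 CPM). These 4 genes, the higher set, were slightly higher in A, whereas Gabra3 stood at 22.4 CPM in A and 31.2 CPM in B, a log2 ratio of -0.47. The median log2 ratio was 0.23 over the 7 genes and -0.53 over all genes tested. Over genes with a mean of 5 to 50 CPM it was -0.50, and over those above 50 CPM it was -0.26. Scaling by TMM factors shifted log2 ratios of A over B upward by 0.38, slightly less for the lowest genes, giving 0.69 for Gabrb2 and -0.10 for Gabra3. The adjusted p of Gabra3 in the exact binomial test was then 0.528. With these factors 4 of the 7 genes stayed above 0 and the same 2 were called. Over all genes, 1458 were higher in A and 4550 in B by gene totals, against 2080 and 3241 with TMM factors.

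**Figure D4:**
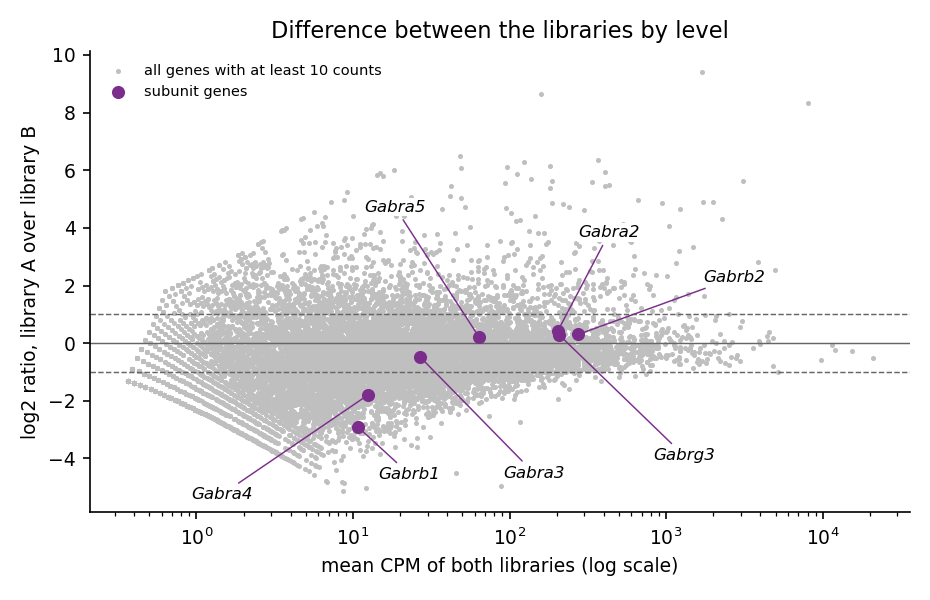
Log2 ratio of library A over library B (vertical axis) against the mean CPM of both libraries (horizontal axis, log scale) for all 14107 genes tested (grey) and the 7 subunit genes (purple); dashed lines mark 2-fold. Gabrb1 and Gabra4 lie below the lower dashed line, at -2.91 and -1.79, and the other 5 lie between the lines.

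The 2 called genes are neighbours placed head to head on chromosome 5. In RefSeq on GRCm38.p6, Gabra4 runs on the minus strand and Gabrb1 on the plus strand, and their first start sites lie 387 bases apart with the Gabrb1 start inside the span of Gabra4. In GENCODE they share 46 exon bases on opposite strands. The sources used here do not say whether counting used strand, so reads in that stretch cannot be told apart or may have been set aside as ambiguous. For that reason the start windows of both are shown, together with that of Gabrb2, the highest gene, each from 250 bases before to 50 bases after a RefSeq start site and read 5′ to 3′ on the gene's strand. Gabrb1 has 2 RefSeq windows and Gabrb2 has 3; the first is shown. Capitals mark matches on either strand to the letters GCGNGGGCG (the Egr motif), TGACG (the core of the cyclic AMP response element) or TATAAA (the TATA box).
Gabra4, chr5:71658259-71658558, minus strand: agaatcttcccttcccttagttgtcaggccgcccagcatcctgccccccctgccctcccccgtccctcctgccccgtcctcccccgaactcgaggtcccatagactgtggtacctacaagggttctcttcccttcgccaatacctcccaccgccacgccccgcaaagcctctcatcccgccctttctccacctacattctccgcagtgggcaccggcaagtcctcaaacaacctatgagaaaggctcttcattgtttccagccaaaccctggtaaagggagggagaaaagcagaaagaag
Gabrb1, chr5:71657671-71657970, plus strand: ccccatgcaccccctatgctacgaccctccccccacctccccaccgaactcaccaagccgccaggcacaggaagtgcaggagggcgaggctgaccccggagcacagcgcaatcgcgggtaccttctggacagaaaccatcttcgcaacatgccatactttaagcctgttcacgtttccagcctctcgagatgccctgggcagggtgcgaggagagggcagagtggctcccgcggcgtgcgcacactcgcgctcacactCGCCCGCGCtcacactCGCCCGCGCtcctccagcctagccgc
Gabrb2, chr11:42420190-42420489, plus strand: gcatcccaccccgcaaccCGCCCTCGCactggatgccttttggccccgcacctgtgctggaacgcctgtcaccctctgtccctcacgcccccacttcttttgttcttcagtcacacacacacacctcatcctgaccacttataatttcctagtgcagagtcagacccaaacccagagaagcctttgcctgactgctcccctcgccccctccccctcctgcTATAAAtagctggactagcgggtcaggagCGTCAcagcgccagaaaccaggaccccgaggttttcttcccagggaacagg
The Gabrb1 window shown held 2 Egr matches, and the Gabra4 window held no match to any of the 3. The Gabrb2 window shown held 1 match to each, with no overlap between motifs. The other windows of Gabrb1 and Gabrb2, which are not shown, held no match to any of the 3. Of all 32851 RefSeq windows of this length, 5.55% held an Egr match, 20.8% the TGACG letters and 13.6% the TATA letters. The windows held 12 CG pairs for Gabra4, 25 for Gabrb1 and 11 for Gabrb2, and 9 in each of the other windows of these beta genes, against a median of 7 over all windows. The 2 windows of Gabra3 overlap and held 0 CG pairs each. Their TATA match, 1 in each, is the same site, read on the opposite strand. The window of Gabra2 held 25 CG pairs. The motifs and the codons shown were chosen after the levels were seen, and a match describes the letters only.

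The remaining classes of GABA-A subunits summed to 1.16 TPM in A and 16.1 TPM in B. Of the 7 delta, epsilon, pi, theta and rho subunit genes, 0 were detected in both libraries, against 46.8% of all listed genes. Gabre, Gabrp and Gabrr2 had no count in either library, which allows up to 0.379 CPM in A and 0.218 CPM in B for counting error only. The theta subunit gene Gabrq had 2 counts in A and 129 in B, and the rho subunit gene Gabrr1 had 3 and 34; both were called higher in B (adjusted p = 4.16e-22 and 2.92e-04 by the exact binomial test). Per length their levels resembled those of Gabrb1, at 0.258 and 9.61 TPM for Gabrq and 0.906 and 5.93 TPM for Gabrr1.

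Genes of the inhibitory postsynapse were present alongside the subunits. All 12 genes of that list were detected, against 46.8% of all listed genes. Their median was 97.2 TPM in A and 107 TPM in B, beside 104 and 86.2 TPM for the 7 subunit genes. Among the highest were Mdga2, a surface protein that binds neuroligins, at 275 TPM in A and 244 TPM in B, and Gphn, the scaffold gephyrin, at 202 and 225 TPM; neither was called between the libraries. Nlgn2, the neuroligin of inhibitory synapses, at 48.2 TPM in A and 147 TPM in B, was called higher in B (log2 ratio -1.60, adjusted p = 1.43e-115 by the exact binomial test). Of 14 genes that carry receptors to or from the membrane, 13 were detected and 2 were called, both higher in B. Over all genes, 46.8% of those listed were detected and 42.6% of those tested were called in either direction. The 2 called were Gabarapl2 at 35.3 TPM in A and 134 TPM in B, and Hap1 at 0.884 CPM in A and 14.4 CPM in B. The highest of that list were the motor gene Kif5a at 741 and 966 TPM, the fusion factor gene Nsf at 220 and 329 TPM, and Rdx, encoding radixin, which anchors alpha5 receptors to actin, at 131 and 107 TPM.

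What an open GABA-A receptor does to a neuron depends on its chloride gradient, which the exporter KCC2 (Slc12a5) and the importer NKCC1 (Slc12a2) set. Slc12a5 stood at 217 TPM in A and 192 TPM in B, close to Gabrb2, and Slc12a2 at 16.5 and 31.1 TPM. The exporter gene exceeded the importer gene 8.59-fold, with a 95% interval of 3.41 to 21.6, and 6.19-fold (2.46 to 15.6) with coding lengths. Transcript levels do not give the activity of either protein. Of the 11 chloride transport genes 10 were detected and 3 were called, against 46.8% and 42.6% over all genes. The kinase gene Wnk3 was higher in A (627 TPM, against 115 TPM in B), and the exchanger gene Slc4a3 and the transporter gene Slc12a7 were higher in B. Wnk1 stood at 142 TPM in A and 174 TPM in B.

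Of 8 genes for making, packaging, taking up and breaking down GABA, 6 were detected and 1 was called, against 46.8% and 42.6% over all genes. The uptake transporter gene Slc6a11 stood at 110 TPM in A and 184 TPM in B, and the breakdown enzyme gene Abat at 47.2 and 64.0 TPM. Gad1, a GABA-synthesising enzyme, stood at 0.723 TPM in A and 3.44 TPM in B and was the 1 gene of the list called (higher in B, adjusted p = 2.32e-06 by the exact binomial test), and Slc32a1 had 1 count in A and 10 in B. The second synthesising enzyme, Gad2, stood at 54.3 and 52.9 TPM. Of the metabotropic GABA-B receptor, all 6 genes of its list were detected, and Gabbr2 stood at 1313 TPM in A and 646 TPM in B, called higher in A, with Kctd12, an auxiliary subunit, at 1157 and 1559 TPM and Kctd8 at 149 and 237 TPM. Gabrb2 was 0.242-fold of Gabbr2 (95% interval 0.0870 to 0.673), though with coding lengths the interval held 1 (0.423-fold, 0.152 to 1.17).

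**Figure D5:**
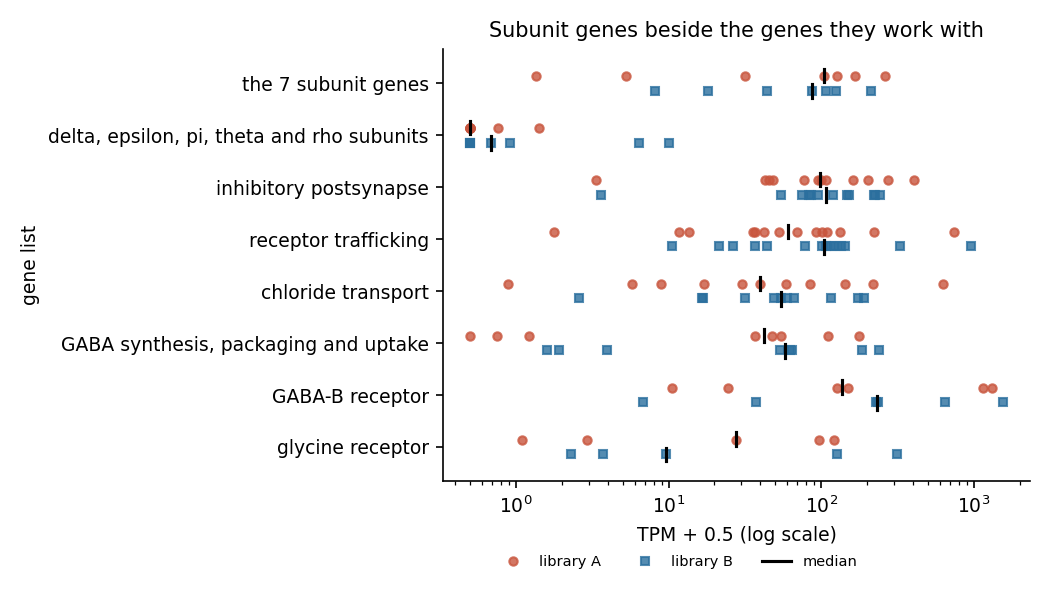
TPM plus 0.5 (horizontal axis, log scale) of the 7 subunit genes and of the genes in 7 lists, in library A (circles) and library B (squares), with each list's median as a short line. The subunit genes overlap the postsynaptic list, and the delta, epsilon, pi, theta and rho genes reach at most 9.61 TPM.

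Glycine receptors, the other inhibitory chloride channels of ganglion cells, reached similar levels in 2 of their 5 genes. The beta subunit gene Glrb stood at 121 TPM in A and 126 TPM in B, and the alpha subunit gene Glra2 at 97.0 and 313 TPM and was called higher in B (log2 ratio -1.68, adjusted p = 6.92e-143). Glra1, the alpha subunit of adult spinal cord, was called higher in A at 27.2 TPM, against 9.08 TPM in B, and Glra3 was called higher in B (log2 ratio -1.96). Gabra2 over Glra2 was 0.711, with a 95% interval of 0.276 to 1.83, while library A by itself gave 1.72 and library B 0.397. With coding lengths it lay on the other side of 1, at 1.72 (0.668 to 4.43). The AMPA receptor genes, the fast excitatory counterpart, summed to 545 TPM in A and 745 TPM in B over 4 genes. The NMDA receptor genes summed to 109 and 139 TPM over 7 genes, and the 7 subunit genes to 696 and 599 TPM. The 7 subunit genes are only a part of the GABA-A family, which has further alpha, beta and gamma genes. These sums therefore do not compare whole families. Gabrb2 over Gria2, an AMPA subunit, was 1.34 with an interval of 0.511 to 3.54, so the genes were not separated, and 0.947 (0.360 to 2.49) with coding lengths. Gabrb2 exceeded Grin1, the obligatory NMDA subunit, 5.89-fold (2.41 to 14.4). These pairs across families, and those with Gabbr2 and Slc12a2, were chosen after their values were seen.

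Among the genes of these lists, those nearest to each subunit gene in level were found by the distance between log2 values of TPM plus 0.5 over the 2 libraries. Mdga2 was nearest to Gabrb2 at a distance of 0.21, Rdx to Gabra2 at 0.41 and to Gabra5 at 0.06, and Shisa7 to Gabrg3 at 0.10. Clcn3 was nearest to Gabra3 at 0.17, Slc4a3 to Gabra4 at 0.20 and Gabrr1 to Gabrb1 at 0.35. With 2 libraries this likeness is one of level and of a single difference.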

How the data were processed

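The values deposited by the authors are raw read counts by gene symbol. Per the submitters' processing notes, HTSeq 0.6.1, TopHat2 2.0.10 and Trimmomatic 0.32 were used with mm9, in no stated order; the annotation, the settings and the use of strand were not given in the sources used here. Genes held 26.8% of the counted reads in A and 30.9% in B; the HTSeq summary lines were left out of all totals. CPM is the count per 1000000 gene counts. TPM used summed exon lengths of GENCODE M21, on GRCm38, taken for lengths, strand overlap and coding sequence only; 23655 of 24015 symbols matched, holding 98.1% of counts in A and 97.4% in B. Start windows and chromosomes are from RefSeq on GRCm38.p6, and all 7 genes matched.

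A single group leaves edgeR's quasi-likelihood test nothing to contrast. The ratio of 2 genes has a 95% interval from counting error and the trended dispersion of an intercept-only edgeR 4.0.16 fit with TMM factors in R 4.3.3, over 11272 genes kept by its filter (common biological coefficient of variation 0.507). Adjusted p-values are from the exact binomial test over all genes with at least 10 counts, fitted across the whole table, with a log2 pseudocount of 0.5. Intervals, limits and p-values from reads cover counting error of amplified reads without molecular identifiers, and the limit for no count is 3 counts. Both procedures were run on simulated data. For the binomial test these had counting error only, without spread between libraries. For the intervals the counts were drawn with the same dispersion that the intervals use. Such runs check the calculation and not how well either procedure holds for these data. Python 3.11.15 with scipy 1.17.1 was used; DESeq2 1.42.0 gave size factors as an alternative.

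The members, lists and tests were chosen with earlier results of these data known. All 7 members are named; of the lists, the 3 highest by TPM, the genes called between the libraries and those with no count; for the NMDA list sums are given. Some genes of the lists are not reported here, and the list of other GABA-A subunit genes was narrowed to the delta, epsilon, pi, theta and rho genes after the files were read. Proteins were not used here, so a planned comparison of protein identity was not made.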

Additional observations from a re-analysis of the deposited data

How the results depend on the processing

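Gabrb2 over Gabrb1, and Gabra2 and Gabra5 over Gabra4, stayed separated under every length, dispersion and filter tried and in each library alone. The number of separated neighbours was 2 of 6, and each setting was counted over these same 6 pairs of the main order. It was 1 with the longest transcript, 1 with the common dispersion and 1 with no expression filter. With coding length and without length correction it was 3. Both of these counts include Gabra5 over Gabrg3, which was separated the other way round, and the order itself had changed. Those counts of 3 thus do not show a better resolved order. With 1 library left out the number was 0 to 2, where the dispersion of both was kept and intervals widen by construction. Some ratios turned round: Gabra5 over Gabrg3 was 0.308 with coding length and 0.305 without length correction, Gabra4 over Gabrb1 was 0.950 with coding length, and Gabra2 over Gabrg3 was 0.979 without length correction; the change of length is the alternative itself. With DESeq2 size factors, 2278 genes were called higher in A and 2960 in B, and the same 2 subunit genes were called as with TMM factors and with no minimum count. With a minimum of 10 CPM, 5 subunit genes passed in both. No paired analysis was possible because there was 1 group. Gabrb1 rests on 17 counts in A, and p-values between 2 libraries cover counting error in these libraries only.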
